A study of Mus musculus with 6 samples.

Results

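The genes of glycolysis, of the pyruvate switch and of the response to hypoxia were examined in cultured mouse brain endothelium exposed to dolutegravir. They were chosen by name, with earlier results of these data known, as 38 genes of the 43271 in the count table. Of these, 18 encode enzymes and the lactate exporter of the glycolytic route, 4 the PFKFB enzymes and TIGAR, 5 the pyruvate dehydrogenase kinases and a phosphatase, 4 the HIF alpha subunits and the prolyl hydroxylases that mark them, and 7 are hypoxia targets outside glycolysis. All cells were wild-type primary microvascular endothelial cells from the brain of C57bl/6 mice, grown to confluence. The DTG group (3 libraries) was given dolutegravir, a drug against HIV that blocks the viral integrase, for 24 h at 5000 ng/ml, and the DMSO group (3 libraries) the solvent alone for 24 h. Library names carry a P4 tag (DTG replicates 2 and 3, DMSO replicate 1) or a P5 tag (DTG replicate 1, DMSO replicates 2 and 3), and what the tag stands for is not given. Nothing in the labels tells separate cultures from repeat libraries, so each p-value reflects the spread among these libraries only, and that spread may be technical.

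Glycolysis splits glucose into pyruvate, which endothelial cells largely turn into lactate even with oxygen at hand. Hexokinase and phosphofructokinase set the pace at its entry, the PFKFB enzymes make and break the sugar phosphate that activates phosphofructokinase, and the pyruvate dehydrogenase kinases (PDK) switch off the enzyme complex that passes pyruvate to the mitochondria. In low oxygen the HIF alpha proteins escape prolyl hydroxylation, accumulate, and bind promoter elements with a short core sequence in many of these genes. HIF alpha activity is set mostly at the protein, which RNA counts do not measure.

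Promoter sequences came from RefSeq on GRCm38.p6 and covered 34 of the 38 genes, in 51 windows of 250 bases before an annotated start. Epas1, Pdp1, Bnip3l and Ndrg1 had no window. The core of the hypoxia response element was searched as ACGTG and as GCGTG on both strands, where CACGTG counts on each strand. Either core was present in 78.4% of the 51 windows, in 38.6% of all 32851 promoter windows, and in 54.6% of the 13159 windows of genes with enough counts to be tested. For ACGTG alone the shares were 47.1% of the members' windows, 16.6% of all windows and 21.3% of the windows of tested genes. For GCGTG alone they were 51.0%, 28.2% and 43.6% in the same order. A C/EBP-ATF element (TGATGNAA) was found in 0 of the 51 windows, against 3.45% of all windows, and the ER stress element in 0 of the 51, against 0.113%. The core was present at members of every outcome described below. A window held it in 14 of 16 genes that were higher with DTG, in 4 of 4 that were lower, in 7 of 8 that did not pass the test and in 5 of 6 with too few counts for a test. A match is a description of letters and no evidence of binding. The 5 windows below are shown because they belong to genes that rose (Hk2, Pgk1) and genes that fell (Pdk1, Pdk2, Egln3) and all hold the core, which is in capitals. They are written 5′ to 3′ on the strand of the gene, up to the last base before the start, at chr6:82774455-82774704 (minus strand, Hk2), chrX:106186850-106187099 (plus strand, Pgk1), chr2:71872974-71873223 (plus strand, Pdk1), chr11:95041372-95041621 (minus strand, Pdk2) and chr12:54203875-54204124 (minus strand, Egln3).
Hk2: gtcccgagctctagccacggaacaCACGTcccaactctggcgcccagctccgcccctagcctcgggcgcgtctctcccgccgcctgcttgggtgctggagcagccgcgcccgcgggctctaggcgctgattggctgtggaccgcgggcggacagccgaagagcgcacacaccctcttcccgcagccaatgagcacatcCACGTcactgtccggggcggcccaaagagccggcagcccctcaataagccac
Pgk1: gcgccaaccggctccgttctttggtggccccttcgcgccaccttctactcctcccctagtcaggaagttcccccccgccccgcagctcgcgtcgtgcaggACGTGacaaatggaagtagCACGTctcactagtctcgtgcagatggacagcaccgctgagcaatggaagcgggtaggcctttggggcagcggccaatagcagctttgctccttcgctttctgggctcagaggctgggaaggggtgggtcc
Pdk1: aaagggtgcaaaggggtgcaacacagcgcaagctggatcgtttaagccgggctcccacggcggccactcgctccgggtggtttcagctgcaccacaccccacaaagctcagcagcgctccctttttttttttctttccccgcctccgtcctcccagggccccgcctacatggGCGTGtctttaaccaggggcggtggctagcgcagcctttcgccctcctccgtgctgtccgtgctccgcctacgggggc
Pdk2: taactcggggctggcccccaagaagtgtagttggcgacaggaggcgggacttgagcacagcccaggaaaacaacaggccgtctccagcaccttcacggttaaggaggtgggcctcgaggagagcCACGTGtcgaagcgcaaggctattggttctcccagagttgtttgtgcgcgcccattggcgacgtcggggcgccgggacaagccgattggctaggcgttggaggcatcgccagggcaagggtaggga
Egln3: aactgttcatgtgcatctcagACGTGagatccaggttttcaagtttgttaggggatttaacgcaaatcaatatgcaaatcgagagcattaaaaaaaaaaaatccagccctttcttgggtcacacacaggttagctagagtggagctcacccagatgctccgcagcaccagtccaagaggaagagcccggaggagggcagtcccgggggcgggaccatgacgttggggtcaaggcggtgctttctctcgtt
In the Hk2 window 221 and 47 bases separate the cores from the start, and in the Pgk1 window 145 and 126. The single core of Pdk1 is 73 bases from the start and that of Egln3 224. In the Pdk2 window the capitals form a palindrome, which ends 120 bases before the start and was counted on both strands.

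Total counts were 56316335, 54728627 and 51344169 in the DTG libraries and 47574809, 55998253 and 41162353 in the DMSO libraries. Levels are CPM, counts scaled to the TMM-adjusted library size, where TMM is a scaling that allows for a few abundant genes taking up reads. The test was the quasi-likelihood F-test of edgeR, with Benjamini-Hochberg adjustment over all 14101 genes with enough counts and a threshold of 0.05. The treatment moved a large part of the transcriptome: 56.7% of all genes tested passed, 27.4% higher and 29.3% lower in DTG. For 64.2% of genes the groups did not overlap, with all DTG libraries above all DMSO libraries for 31.1% and below for 33.1%. These shares are the background for every count of members. Of the 38 genes, 32 had enough counts to be tested. Of these 17 rose, 6 fell and 9 did not pass, with a median log2 change of 0.33, while the median over all genes tested was -0.01. All DTG libraries lay above all DMSO libraries for 18 of the 32 and below for 7. At least 2-fold changes were called for 6 of the 32 in the higher direction (Hk2, Pgk1, Pdk3, Hif1a, Ndrg1 and Hilpda) and for 1 in the lower (Epas1), and for 6.28% and 8.35% of all genes tested. Each of the 23 called genes had the same sign within P4 and within P5, as did 7986 of the 7990 genes called among all genes tested. Scaling by library size alone set the median of all genes at -0.185, against -0.015 with TMM, and gave 14 members higher and 10 lower. At that scaling 30.7% of the calls over all genes were higher, against 48.3% with TMM.

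**Figure D1:**
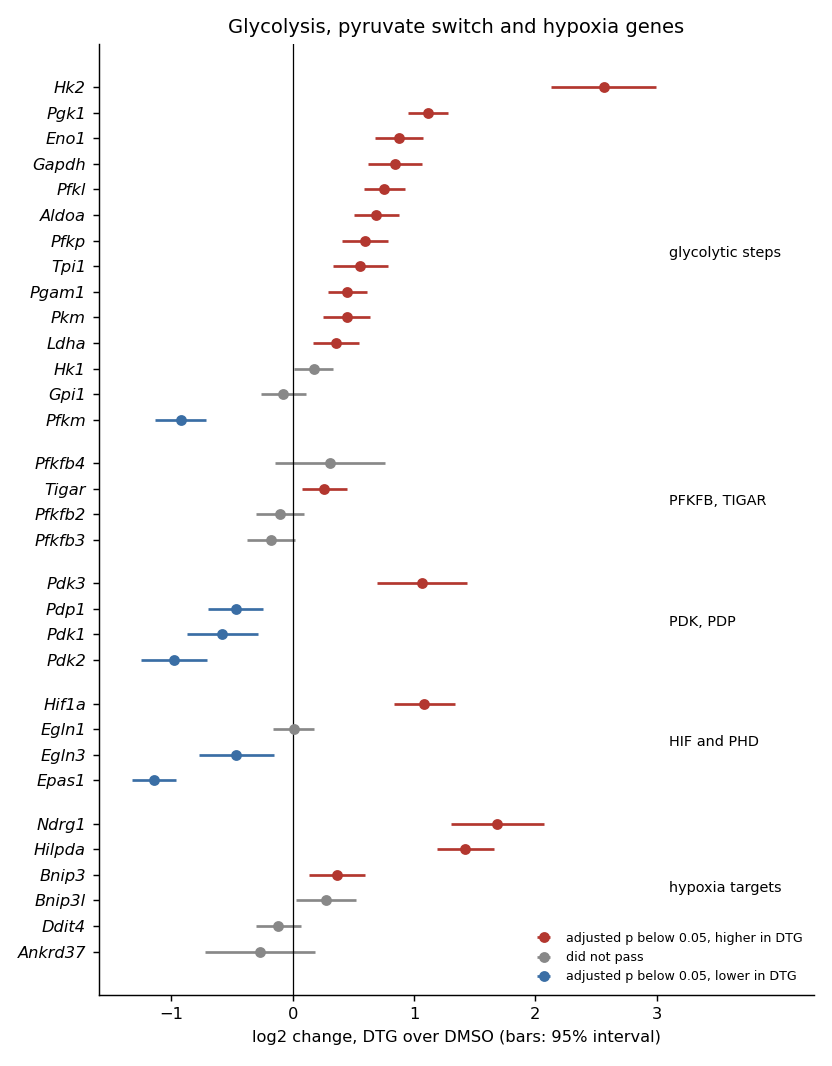
Log2 change (DTG over DMSO, horizontal axis) of the 32 tested genes, grouped by role from top to bottom; points are estimates and bars 95% intervals. Red points passed the test higher in DTG, blue points passed it lower, grey points did not pass. Hk2 has the largest change among them (2.56), Epas1 the lowest (-1.14), and the 4 tested PDK and PDP genes lie on both sides of 0.

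Endothelial identity was checked first. The summed level of 13 endothelial markers was 7126 to 7425 CPM in DTG and 11330 to 12360 CPM in DMSO libraries. Cdh5, the adhesion protein of endothelial junctions, averaged 2115 ± 106 CPM in DTG and 1874 ± 117 CPM in DMSO (SD, n = 3 each). Vwf, the clotting factor carrier, averaged 950 ± 37.7 CPM in DTG and 2958 ± 422 CPM in DMSO, and Kdr, the VEGF receptor, 796 ± 72.8 CPM and 1853 ± 78.0 CPM. Slco1c1, a transporter of brain endothelium in vivo, was at 0 in every library. Of markers of other cells, the 5 astrocyte markers summed to at most 0.118 CPM in DTG and 0.138 CPM in DMSO, the 4 epithelial markers to at most 0.0207 and 0.046 CPM, the 8 mural markers to 0.892 to 1.51 CPM in DTG and 0.607 to 0.737 CPM in DMSO, and the 5 fibroblast markers to 7.74 to 8.68 CPM and 6.52 to 7.44 CPM. Oligodendrocyte markers (4) summed to 1.24 to 1.41 CPM in DTG and 1.57 to 1.87 CPM in DMSO, and neuronal markers (4) to 2.21 to 6.04 CPM in DTG, nearly all of it Tubb3, and 0.158 to 0.322 CPM in DMSO. Microglia and macrophage markers (8) summed to 128 to 186 CPM in DTG and 107 to 124.9 CPM in DMSO, nearly all of it Cd68 and Tmem119, while P2ry12 was at 0 in every library. Cd68, a lysosomal protein of macrophages, averaged 140 ± 33.6 CPM in DTG and 91.4 ± 7.35 CPM in DMSO and was higher (log2 0.62, adjusted p = 0.00559). Tmem119 averaged 6.93 ± 0.766 CPM in DTG and 26.7 ± 2.98 CPM in DMSO and fell by 1.95 on the log2 scale (adjusted p = 1.09e-06). The part of these marker differences in the changes described below was not tested, and fewer endothelial cells and less of a marker's RNA per cell cannot be told apart in these bulk libraries.

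Along the glycolytic route most steps rose together, from hexokinase to lactate dehydrogenase. Of the 18 genes 14 were tested: 11 rose, 1 fell (Pfkm) and 2 did not pass (Hk1 and Gpi1), with a median log2 change of 0.58. The rise was uneven, with Hk2 far above the others and Pgk1 next. Eno2, Ldhb, Aldoc and Slc16a3 had almost no reads in either group.

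**Figure D2:**
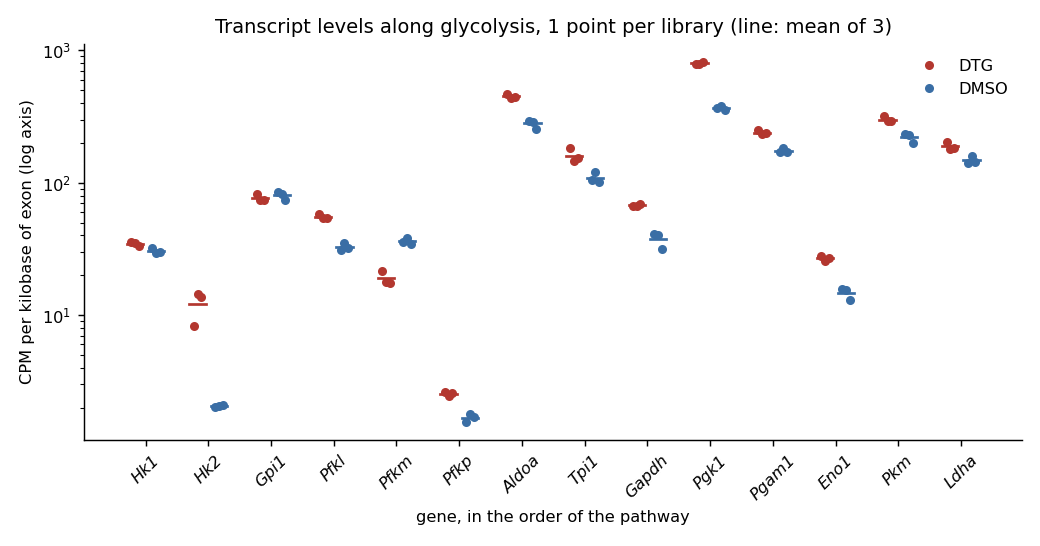
CPM per kilobase of exon (vertical axis, log scale) of the 14 tested genes of the glycolytic route in pathway order; each point is 1 library, DTG in red left of DMSO in blue, and lines are means of 3. Pgk1 has the highest value per kilobase of exon in both groups (797 in DTG, 368 in DMSO). Hk2 shows the widest gap, with DTG replicate 1 below the other DTG libraries.

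Per kilobase of exon, the levels ran from Pgk1 at 797 ± 17.03 CPM per kb in DTG and 368 ± 12.6 in DMSO, through Aldoa at 451 ± 17.6 and 280 ± 20.6, down to Pfkp at 2.55 ± 0.106 and 1.68 ± 0.118 (SD, n = 3 each). Among the tested genes of the route Hk2 was the next to lowest in DTG at 12.1 ± 3.31 CPM per kb and also in DMSO at 2.05 ± 0.0446. The length is that of all annotated exons of a gene joined, and this order depends on it. In CPM without length, Pkm (1103) lay above Pgk1 (826) in DMSO, and Pgk1 (1789) above Pkm (1500) in DTG. For Aldoa the joined exons span 2911 bases and the longest protein-coding transcript 1549, and for Pgk1 2244 and 1825.

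Hexokinase commits glucose to the cell by phosphorylating it, with Hk1 as the constitutive and Hk2 as the inducible isoform. Hk2 stood at 49.7, 86.3 and 81.1 CPM in the DTG libraries and at 11.97, 12.2 and 12.5 CPM in the DMSO libraries. Every DTG library lay above every DMSO library, and DTG replicate 1, which carries the P5 tag, lay apart from the other DTG libraries. It did so over all genes tested as well, at -39.7 on the main axis of variation among libraries (first principal component). The other DTG libraries lay at -55.02 and -53.64 on that axis, and the DMSO libraries at 48.95 to 50.1. The change of Hk2 was 5.91-fold (log2 2.56 ± 0.19 SE, adjusted p = 8.29e-06), with a log2 difference of 2.80 within P4 and 2.00 within P5. Hk1 stood at 305, 298 and 282 CPM in DTG and at 276, 252 and 257 CPM in DMSO. Its groups did not overlap, yet the difference was small (log2 0.17 ± 0.07) and missed the threshold (adjusted p = 0.0706). Hk2 made up 25.8% ± 5.96 of the reads per kilobase of Hk1 and Hk2 in DTG and 6.28% ± 0.377 in DMSO (SD, n = 3 each). The joined exons span 8532 bases for Hk1 and 5969 for Hk2, and the longest transcripts 4278 and 5513. With transcript lengths the Hk2 share would be lower in both groups. The total of both genes was 46.7 ± 2.63 CPM per kb in DTG and 32.7 ± 1.44 in DMSO, with no overlap (two-sided exact permutation p = 0.1, the lowest value possible with 3 libraries a group). Gpi1, which turns glucose phosphate into fructose phosphate, averaged 493 ± 33.5 CPM in DTG and 520 ± 34.9 CPM in DMSO, with overlapping groups (log2 -0.08 ± 0.08, adjusted p = 0.461).

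Phosphofructokinase, the committed step of the pathway, differed in its make-up between the groups. Pfkl, the liver-type isoform, stood at 386, 360 and 359 CPM in DTG and at 209, 232 and 213 CPM in DMSO. Pfkm, the muscle-type isoform, stood at 72.5, 59.8 and 58.0 CPM in DTG and at 119, 127 and 116 CPM in DMSO. The isoforms moved apart: Pfkl rose (log2 0.76 ± 0.08, adjusted p = 2.16e-05) and Pfkm fell by 0.92 on the log2 scale (SE 0.10, adjusted p = 2.6e-05), neither with any overlap of groups. Pfkp, the platelet-type isoform and the lowest per kilobase, averaged 34.2 ± 1.43 CPM in DTG and 22.6 ± 1.58 CPM in DMSO (log2 0.60 ± 0.09, adjusted p = 0.000211). Per kilobase, Pfkl held 71.97% ± 1.40 of the family in DTG and 46.4% ± 0.603 in DMSO, and Pfkm 24.7% ± 1.51 and 51.2% ± 0.714. The family total was 76.7 ± 4.72 CPM per kb in DTG and 70.4 ± 3.59 in DMSO, with overlapping groups (two-sided exact permutation p = 0.3). The difference of 6.31 became -2.34 with scaling by library size alone. The joined exons span 6675 bases for Pfkl, 3340 for Pfkm and 13401 for Pfkp, and the longest transcripts 3730, 2879 and 4145. Which of Pfkl and Pfkm led in DMSO, and whether the totals overlap, therefore depend on the length used. The direction of each isoform's change does not. Exons of Pfkm share 341 bases with another gene on the same strand, and those of Pfkp 748 bases with a gene on the opposite strand, so reads there could have been assigned to either. The same holds for 767 bases of Pkm on the same strand, and on the opposite strand for 741 bases of Gpi1, 556 of Ndrg1, 504 of Bnip3, 406 of Ankrd37 and 214 of Car9.

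From aldolase onwards each tested member of the route rose. Aldoa, the aldolase that cleaves the sugar, stood at 1373, 1279 and 1290 CPM in DTG and at 856, 844 and 747 CPM in DMSO (log2 0.69 ± 0.08, adjusted p = 6.98e-05). Pgk1, the kinase of the first ATP-yielding step, stood at 1758, 1778 and 1832 CPM in DTG and at 828, 853 and 797 CPM in DMSO. Its libraries were tight within groups, and the change of 2.17-fold (log2 1.12 ± 0.07, adjusted p = 1.8e-06) was nearly equal within P4 (1.12) and P5 (1.09). Tpi1, the triose phosphate isomerase, rose by 0.56 ± 0.10 on the log2 scale (adjusted p = 0.00105), and Pgam1, the mutase, by 0.45 ± 0.07 (adjusted p = 0.000465). Pkm, the pyruvate kinase whose splice forms a gene count does not separate, averaged 1500 ± 75.6 CPM in DTG and 1103 ± 87.1 CPM in DMSO (log2 0.44 ± 0.09, adjusted p = 0.00149). Ldha, which reduces pyruvate to lactate, averaged 626 ± 44.4 CPM in DTG and 490 ± 34.9 CPM in DMSO. That was the smallest change among the 11 risen genes of the route (log2 0.35 ± 0.09, adjusted p = 0.00531), and the call was lost with scaling by library size alone (log2 0.18, adjusted p = 0.0989).

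Gapdh and Eno1 need care because near-identical copies of them exist. Gapdh stood at 275, 275 and 286 CPM in DTG and at 170, 166 and 131 CPM in DMSO (log2 0.84 ± 0.10, adjusted p = 6.32e-05). Alignment of its transcript to the mouse transcripts found 78 annotated copies with at least 95% identity over at least 200 bases, of which 3 (Gm3839, Gm10358 and a stretch of Vmn2r60) matched an identifier in the count table. Together they held 0.69% of the joint counts in DTG and 0.77% in DMSO, and adding them left the log2 change at 0.84. Eno1 stood at 152, 139 and 146 CPM in DTG and at 85.0, 82.9 and 70.1 CPM in DMSO (log2 0.87 ± 0.09, adjusted p = 2.37e-05). Its copy Eno1b, 99.5% identical over 1736 bases, took most of the enolase reads. Eno1b averaged 451 ± 7.58 CPM in DTG and 249 ± 5.62 CPM in DMSO (log2 0.86 ± 0.07, adjusted p = 4.99e-06), and its share of the joint counts was 75.6% in DTG and 75.7% in DMSO. Levels of Gapdh and Eno1 against other enzymes are therefore uncertain, since the counting could have split or dropped their reads. The change of the summed Eno1 and Eno1b counts was 0.86 on the log2 scale (adjusted p = 5.92e-06). Copies of Pgk1 (4), Ldha (4), Pkm (1), Pgam1 (1), Tpi1 (1), Gpi1 (1), Ldhb (1) and Bnip3l (1) also exist in the annotation, and none of them matched an identifier in the count table.

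Several genes of the route were close to absent. The neuronal enolase Eno2 and the lactate exporter Slc16a3 had 0 counts in every library, which allows up to 0.0185 CPM over the DTG group and 0.0207 CPM over the DMSO group (3 counts each, counting error only). Ldhb, the lactate dehydrogenase subunit of oxidative tissues, had 1 count in DTG and 0 in DMSO. Aldoc, the brain-type aldolase, had 17 counts over the DTG libraries and 27 over the DMSO libraries, with overlapping levels.

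Of the PFKFB enzymes, which set the activator of phosphofructokinase, Pfkfb2, Pfkfb3 and Pfkfb4 are members, and edgeR called 0 of these 3. Neither DESeq2 nor limma-voom called any of them. The adjusted p was 0.111 for Pfkfb3, 0.224 for Pfkfb4 and 0.341 for Pfkfb2, and none had an unadjusted p under 0.05. Pfkfb3, the main kinase-type isoform of endothelium, stood at 40.9, 47.5 and 46.5 CPM in DTG and at 55.1, 50.3 and 47.3 CPM in DMSO. DTG replicate 2 lay above the lowest DMSO library, and the difference was a log2 of -0.18 ± 0.09 with a 95% interval of -0.38 to 0.02. It was -0.23 among P4 and -0.25 among P5 libraries, and Pfkfb3 passed as lower with the P tag as a term (log2 -0.24, adjusted p = 0.0183), with upper-quartile scaling (0.0236) and with library size alone (0.00617). Pfkfb2 averaged 15.3 ± 0.491 CPM in DTG and 16.4 ± 0.924 CPM in DMSO (log2 -0.10 ± 0.09), with all DTG libraries below all DMSO libraries by a narrow margin. Of its exons 1262 bases overlap another gene on the same strand. Pfkfb4 averaged 2.11 ± 0.126 CPM in DTG and 1.70 ± 0.443 CPM in DMSO (log2 0.31 ± 0.20). Pfkfb3 held 70.0% ± 1.84 of the reads per kilobase of these 3 genes in DTG and 71.99% ± 1.72 in DMSO. The total of the 3 was 7.95, 8.89 and 8.59 CPM per kb in DTG and 9.93, 9.19 and 8.91 in DMSO. The totals did not overlap, by a narrow margin (two-sided exact permutation p = 0.1, the smallest possible). Pfkfb1, the remaining PFKFB gene, belongs to the list of other glycolysis genes and is not in these shares or totals. It averaged 1.89 ± 0.249 CPM in DTG and 3.19 ± 0.135 CPM in DMSO, without overlap, and fell by 0.76 on the log2 scale (SE 0.16, adjusted p = 0.00213). Tigar, which breaks the same activator down, averaged 21.4 ± 0.880 CPM in DTG and 17.9 ± 0.286 CPM in DMSO. Its rise was small (log2 0.26 ± 0.08, adjusted p = 0.021). The Tigar call was lost without DMSO replicate 1 (adjusted p = 0.0654), DMSO replicate 2 (0.0542) or DTG replicate 2 (0.0658), and with upper-quartile scaling (0.107) or library size alone (0.376).

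The genes of the pyruvate switch went in different directions. Of its 5 genes 4 were tested; Pdk3 rose, and Pdk1, Pdk2 and Pdp1 fell. Pdk1, a classical HIF target, stood at 65.1, 53.8 and 52.7 CPM in DTG and at 68.9, 89.6 and 98.2 CPM in DMSO. All DTG libraries lay below all DMSO libraries, by a narrow margin at DTG replicate 1 and DMSO replicate 1, and Pdk1 fell by 0.58 on the log2 scale (SE 0.13, adjusted p = 0.00359). Pdk2 stood at 8.90, 6.74 and 7.57 CPM in DTG and at 15.1, 16.6 and 14.1 CPM in DMSO. It fell by 0.98 on the log2 scale (SE 0.12, adjusted p = 8.69e-05). Pdk3 stood at 13.1, 20.9 and 21.3 CPM in DTG and at 8.84, 8.70 and 8.84 CPM in DMSO. The DMSO libraries were tight, DTG replicate 1 was again apart from the other DTG libraries, and the change was 2.10-fold (log2 1.07 ± 0.17, adjusted p = 0.000373). The log2 difference was 1.25 among P4 and 0.58 among P5 libraries. Pdp1, the phosphatase that switches the complex back on, stood at 11.1, 13.2 and 12.7 CPM in DTG and at 15.8, 18.1 and 17.2 CPM in DMSO. It fell by 0.47 on the log2 scale (SE 0.10, adjusted p = 0.00306). Pdk4, the kinase induced by fasting in muscle and liver, had 0 counts in DTG and 1 in DMSO.

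Per kilobase, Pdk3 held 42.1% ± 9.26 of PDK reads in DTG and 18.0% ± 1.94 in DMSO, Pdk1 43.4% ± 6.87 and 56.8% ± 4.84, and Pdk2 14.4% ± 2.52 and 25.2% ± 3.21 (SD, n = 3 each). The family total was 16.3, 17.2 and 17.5 CPM per kb in DTG and 17.1, 20.2 and 20.5 CPM per kb in DMSO, with overlapping groups (two-sided exact permutation p = 0.3). The joined exons span 7779 bases for Pdk1, 3163 for Pdk2 and 2561 for Pdk3, and the longest transcripts 5185, 2246 and 2115. The shares and the overlap of the totals depend on the length used. Within each library the log2 ratio of Pdk3 to Pdk1 counts was -2.31, -1.37 and -1.31 in DTG and -2.96, -3.36 and -3.47 in DMSO, with no overlap.

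**Figure D3:**
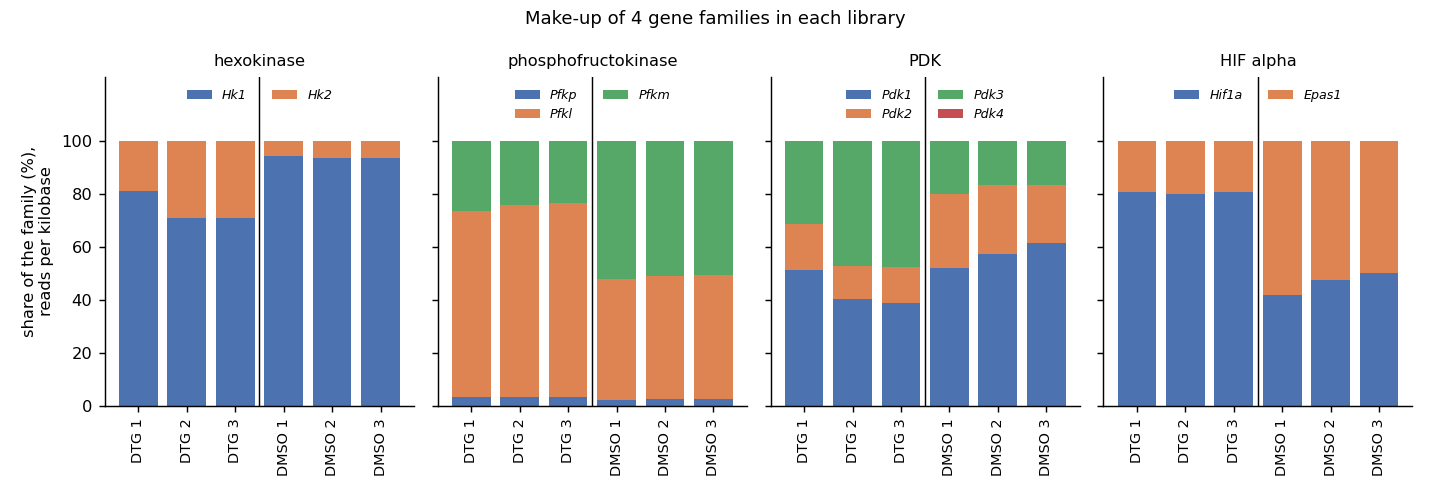
Share of each isoform in its family (vertical axis, percent of reads per kilobase of exon over the genes drawn; Hif3a is not included) in the 3 DTG libraries (left of the line) and the 3 DMSO libraries (right). In DTG, Hk2, Pfkl, Pdk3 and Hif1a take larger shares in every library, and DTG replicate 1 is nearer to DMSO for Hk2 and Pdk3 (31.4% Pdk3 in DTG replicate 1, 16.8% to 20.2% in the DMSO libraries).

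Ratios between isoforms do not depend on library scaling. Of 14 ratios planned 11 could be computed. Differences between DTG and DMSO, on the log2 scale, were 2.35 for Hk2 to Hk1, 1.61 for Pdk3 to Pdk1, -1.53 for Pfkm to Pfkp, -2.235 for Epas1 to Hif1a, -0.495 for Egln3 to Egln1, -0.415 for Pdk2 to Pdk1, 0.52 for Pfkfb4 to Pfkfb3, 0.16 for Pfkl to Pfkp and -1.31 for Aldoc to Aldoa. In each of these 9 the groups did not overlap (two-sided exact permutation p = 0.1, the smallest possible, 0.122 after adjustment over the 11). For Pdk2 to Pdk1 the gap was minimal, with DTG replicate 3 and DMSO replicate 3 both at -2.798. Its groups overlapped with a pseudocount of 5 counts in place of 0.5 (exact permutation p = 0.2), and its difference was -0.272 without DMSO replicate 1. The 2 with overlap were Pfkfb2 to Pfkfb3 at 0.08 (exact permutation p = 0.5) and Bnip3l to Bnip3 at -0.09 (exact permutation p = 0.2, adjusted 0.22).

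The alpha subunits of HIF moved in opposite directions. Hif1a, the broadly expressed subunit, stood at 870, 745 and 760 CPM in DTG and at 320, 368 and 432 CPM in DMSO. Epas1, the subunit enriched in endothelium, stood at 199, 179 and 172 CPM in DTG and at 421, 385 and 406 CPM in DMSO. Neither gene showed any overlap: Hif1a rose 2.12-fold (log2 1.09 ± 0.11, adjusted p = 2.88e-05) and Epas1 fell by 1.14 on the log2 scale (SE 0.08, adjusted p = 2.71e-06). Hif1a held 80.4% ± 0.5 of their reads per kilobase in DTG and 46.5% ± 4.27 in DMSO, and Epas1 19.6% ± 0.5 and 53.5% ± 4.27. The joined exons span 5896 bases for Hif1a and 5590 for Epas1, and the longest transcripts 4724 and 5516. With transcript lengths the Hif1a share would be higher, and which subunit led in DMSO depends on the length. The total of both was 167 ± 13.9 CPM per kb in DTG and 136 ± 8.93 in DMSO, with no overlap (two-sided exact permutation p = 0.1, the smallest possible), and the difference of 31.5 became 13.8 with library size alone. Exons of Hif1a overlap other genes over 148 bases on the same strand and 330 on the opposite strand.

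The prolyl hydroxylases differed between isoforms. Egln1, the main oxygen sensor in most cells, averaged 76.1 ± 3.90 CPM in DTG and 75.8 ± 3.74 CPM in DMSO, with a log2 difference of 0.01 and a 95% interval of -0.16 to 0.17 (adjusted p = 0.951). The sign of that difference turned with upper-quartile scaling (-0.09), with library size alone (-0.16) and without DMSO replicate 1 (-0.04), none of them past the threshold. Egln3, itself a HIF target, stood at 324, 218 and 222 CPM in DTG and at 351, 364 and 340 CPM in DMSO. DTG replicate 1 lay close to the DMSO libraries, and Egln3 fell by 0.46 on the log2 scale (SE 0.14, adjusted p = 0.0155). The log2 difference was -0.67 among P4 and -0.12 among P5 libraries. The Egln3 call was lost without DMSO replicate 2 (adjusted p = 0.0551), DTG replicate 2 (0.0661) or DTG replicate 3 (0.073).

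The 7 hypoxia targets outside glycolysis split into 3 that rose, 3 that did not pass and 1 with too few counts. Ndrg1, a stress-responsive protein of the N-myc downstream family, stood at 266, 441 and 421 CPM in DTG and at 112, 122 and 117 CPM in DMSO. The groups were far apart, again with DTG replicate 1 below the other DTG libraries, and the change was 3.21-fold (log2 1.68 ± 0.17, adjusted p = 4.09e-05). The log2 difference was 1.94 among P4 and 1.15 among P5 libraries. Hilpda, a lipid droplet protein that restrains lipolysis, stood at 50.2, 40.0 and 42.2 CPM in DTG and at 15.6, 18.0 and 15.7 CPM in DMSO. For this gene DTG replicate 1 was the highest library, and the change was 2.68-fold (log2 1.42 ± 0.11, adjusted p = 3.53e-06).

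Bnip3 and Bnip3l are receptors that mark mitochondria for autophagy. Bnip3 stood at 23.1, 21.8 and 21.4 CPM in DTG and at 14.8, 18.1 and 18.6 CPM in DMSO. Its groups did not overlap and the rise passed the test (log2 0.37 ± 0.10, adjusted p = 0.0128). The Bnip3 call was lost without DMSO replicate 1 (adjusted p = 0.0502), with library size alone (0.135), and when the counts of a near-identical copy were added (log2 0.15, adjusted p = 0.187). That copy, AC160336.1, is annotated as a long noncoding RNA with 93147 bases of exon and is 98.3% identical over 858 bases. It averaged 0.556 ± 0.169 CPM in DTG and 3.21 ± 0.298 CPM in DMSO. All of its counts were added, and how many came from the stretch that resembles Bnip3 is not known. Bnip3l averaged 108 ± 9.99 CPM in DTG and 89.7 ± 12.97 CPM in DMSO, with overlapping groups (log2 0.27 ± 0.11, adjusted p = 0.0558).

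Ddit4, an inhibitor of mTOR signalling and the third most abundant of the 38 genes per kilobase in DMSO, stood at 413, 371 and 370 CPM in DTG and at 422, 447 and 384 CPM in DMSO. The groups overlapped (log2 -0.12 ± 0.08, 95% interval -0.31 to 0.07, adjusted p = 0.249). Ankrd37, an ankyrin repeat protein, stood at 9.31, 5.23 and 6.20 CPM in DTG and at 7.03, 9.67 and 8.34 CPM in DMSO. DTG replicate 1 lay within the DMSO range and the other DTG libraries below it (log2 -0.27 ± 0.20, adjusted p = 0.277). Without DTG replicate 1 the difference was -0.51 (adjusted p = 0.019). Car9, the cell-surface carbonic anhydrase often used as a hypoxia marker, had counts of 0, 0 and 1 in DTG and 10, 2 and 1 in DMSO, most of them in DMSO replicate 1. It was too low for the test; in the fit without a count filter its adjusted p was 0.0283, and DESeq2 gave none.

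**Figure D4:**
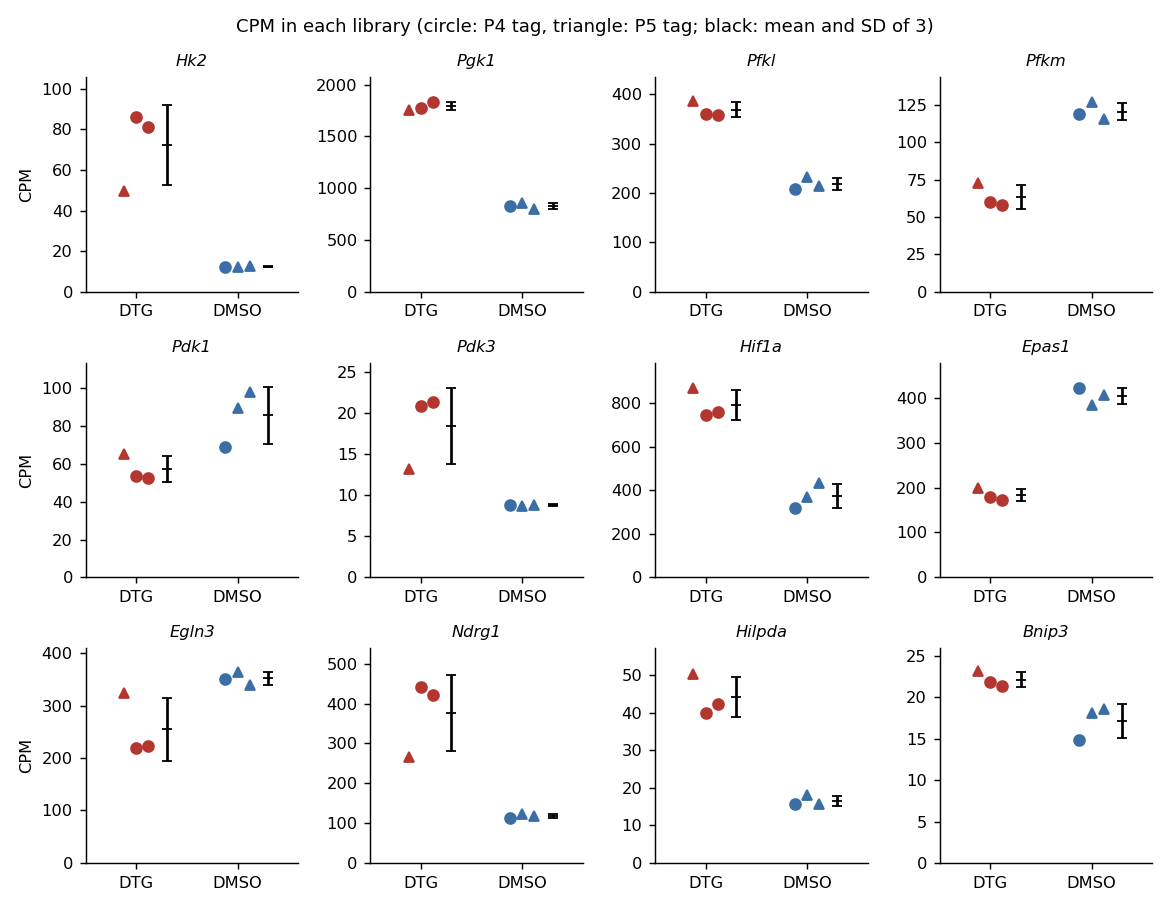
CPM (vertical axis, each panel with its own scale from 0) of 12 genes in every library, DTG in red left of DMSO in blue; circles carry the P4 tag, triangles P5, and black bars show mean and SD of 3. Hk2, Pdk3 and Ndrg1 show DTG replicate 1 (red triangle) below the other DTG libraries, Egln3 shows it above them, and Pgk1 shows all 3 together.

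**Figure D5:**
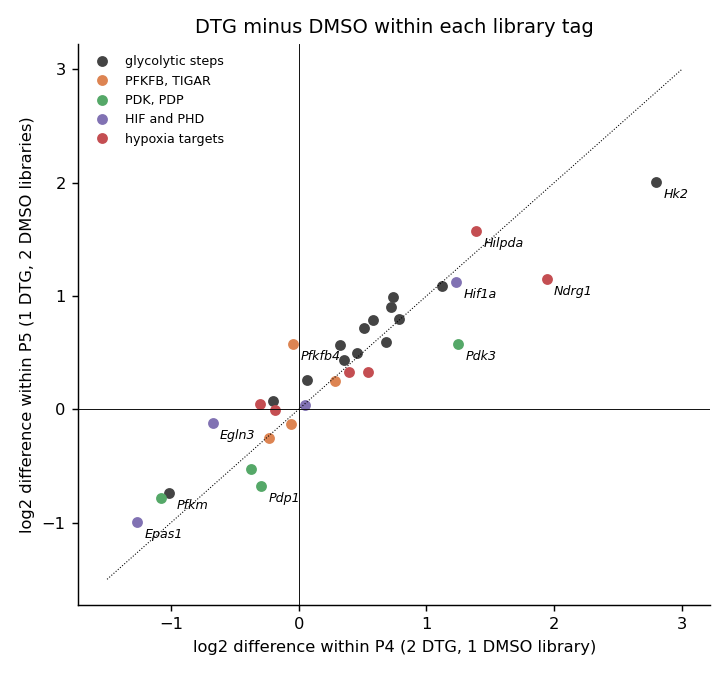
Log2 difference, DTG minus DMSO, of the 32 tested genes within the P4 libraries (horizontal axis, 2 DTG and 1 DMSO) and within the P5 libraries (vertical axis, 1 DTG and 2 DMSO); colours mark roles and the dotted line marks equality. Most points lie near the line, and Hk2 (2.80 and 2.00), Ndrg1 (1.94 and 1.15) and Pdk3 (1.25 and 0.58) lie below it.

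Further genes of the same pathways were read from 5 lists of 102 genes, of which 82 were tested. Of these 36 were higher, 23 lower and 23 did not pass, with a median log2 change of 0.12, beside 27.4% higher and 29.3% lower among all genes tested. In the list of other glycolysis and lactate genes (27, of which 13 tested) 4 rose, 5 fell and 4 did not pass. The 5 that fell, with their log2 changes, were Eno3 (-0.84), Pfkfb1 (-0.76), Galm (-0.63), Bpgm (-0.63) and Slc2a8 (-0.34). Eno3, an enolase, averaged 0.984 CPM in DTG and 1.77 CPM in DMSO. Slc2a1, the glucose transporter of the blood-brain barrier, rose to 365 ± 53.5 CPM in DTG, against 135 ± 11.5 CPM in DMSO (log2 1.43 ± 0.11, adjusted p = 4.87e-06). Slc16a1, a carrier of lactate and pyruvate, averaged 118 ± 10.3 CPM in DTG and 55.2 ± 8.38 CPM in DMSO (log2 1.09 ± 0.11, adjusted p = 2.62e-05). Pgm2, a phosphoglucomutase, changed by 0.92 ± 0.09 and Adpgk, an ADP-dependent glucokinase, by 0.60 ± 0.07 on the log2 scale (adjusted p = 1.66e-05 and 5.82e-05).

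For the entry of pyruvate into the mitochondria and its return to glucose (19 genes, 18 tested), 7 rose, 4 fell and 7 did not pass, with a median of 0.03. Subunits of the pyruvate dehydrogenase complex were among the risen. Pdhb averaged 144 ± 26.8 CPM in DTG and 54.2 ± 3.37 CPM in DMSO (log2 1.41 ± 0.13, adjusted p = 1.13e-05), and Dld 189 ± 35.2 CPM and 91.6 ± 8.44 CPM (log2 1.04 ± 0.13, adjusted p = 9.39e-05). Pcx, pyruvate carboxylase, averaged 35.0 ± 5.07 CPM in DTG and 63.0 ± 8.75 CPM in DMSO, and Fbp1, fructose bisphosphatase, 13.7 ± 1.55 CPM and 23.9 ± 1.09 CPM. Pcx fell by 0.85 and Fbp1 by 0.80 on the log2 scale (adjusted p = 0.000273 and 0.000103).

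In the pentose phosphate branch (8 genes, all tested) 4 rose, 1 fell and 3 did not pass, with a median of 0.23, and without DMSO replicate 2 only 2 rose. Rpe and Rpia, an epimerase and an isomerase of the branch, changed by 0.67 ± 0.09 and 0.53 ± 0.14 on the log2 scale (adjusted p = 0.000105 and 0.00762). Tkt, the transketolase, changed by 0.30 ± 0.09 (adjusted p = 0.0182), a call lost with upper-quartile scaling (0.0837), with library size alone (0.262) and without DMSO replicate 2 (0.0674). H6pd, the dehydrogenase of the branch in the endoplasmic reticulum, fell by 0.60 (SE 0.08, adjusted p = 0.000169).

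Among other genes of the HIF pathway (11, all tested) 5 rose, 1 fell and 5 did not pass, with a median of 0.14. Arnt2, a partner of the alpha subunits, averaged 23.3 ± 2.71 CPM in DTG and 11.2 ± 1.96 CPM in DMSO (log2 1.06 ± 0.14, adjusted p = 0.000112). Eloc and Cul2, parts of the ligase that tags hydroxylated HIF for destruction, changed by 0.38 ± 0.07 and 0.55 ± 0.11 (adjusted p = 0.00108 and 0.00148). Hif3a, a further alpha subunit, averaged 1.29 ± 0.218 CPM in DTG and 2.94 ± 0.0824 CPM in DMSO and fell by 1.19 on the log2 scale (SE 0.17, adjusted p = 0.000227).

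Other hypoxia targets (37 genes, 32 tested) went both ways: 16 rose, 12 fell and 4 did not pass, with a median of 0.11. Ero1a, an oxidase of protein folding in the endoplasmic reticulum, stood at 579, 874 and 845 CPM in DTG and at 70.3, 75.8 and 94.6 CPM in DMSO (log2 3.26 ± 0.18, adjusted p = 1.07e-06). Vegfa, the vascular growth factor, stood at 76.0, 109 and 103 CPM in DTG and at 29.4, 26.5 and 24.8 CPM in DMSO (log2 1.83 ± 0.13, adjusted p = 2.74e-06). For both, DTG replicate 1 was the lowest DTG library and still above every DMSO library. Bhlhe40, a transcriptional repressor, changed by 0.97 ± 0.07 (adjusted p = 3.98e-06). Anln, a scaffold protein of dividing cells that hypoxia signatures include, averaged 43.3 ± 1.48 CPM in DTG and 86.9 ± 4.83 CPM in DMSO and fell by 1.00 on the log2 scale (SE 0.08, adjusted p = 3.56e-06).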

How the data were processed

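RNA of 3 DTG and 3 DMSO samples was sequenced as poly(A) libraries with a stranded kit, per the labels' protocols. The authors deposited raw counts per Ensembl gene identifier, whole numbers without normalization; the build was GRCm39 per the submitters' processing notes. Which aligner, counter, strand option and annotation release made them is not given in the sources used here, and without a known strand option reads of overlapping genes on opposite strands cannot be told apart. The header of DTG replicate 1 reads DIG in place of DTG; its sample's description holds the same name. Symbols from a name table matched 38606 of 43271 identifiers (89.2%). Identifiers without a symbol held 0.33% to 0.49% of a library's counts.

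Libraries held 41162353 to 56316335 counts, which leaves little counting error except for genes with few reads. The test used edgeR 4.0.16 under R 4.3.3 (filterByExpr by group, TMM, robust quasi-likelihood F-test with group as the only term, Benjamini-Hochberg adjustment over 14101 genes). The SE was taken as the size of the log2 change over the square root of F. Fold changes are fitted values, and n is 3 per group. Ratios of isoforms used counts with a pseudocount of 0.5 and a two-sided exact permutation test. Exon lengths came from GENCODE M21 on another build (GRCm38), matched by gene identifier. They join all annotated exons of a gene and can be much longer than its longest transcript. Levels per kilobase, family shares and family totals depend on that length, while the change of a single gene does not. Near-identical copies were found with blastn 2.17.0. Figures used matplotlib 3.10.9 under Python 3.11.15.

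The members and lists were chosen with earlier results of these data known. The text names every member, the 4 called genes with the smallest p in each further list, the 3 most abundant endothelial markers with the markers that made up most of another list's sum, and copies found by name. Copies found by alignment, the 5 fallen genes of the list of other glycolysis and lactate genes, Slco1c1 and P2ry12 were named after their values were seen. Alternatives were other scalings (RLE, upper-quartile, library size alone), other filters, DESeq2 1.42.0, limma-voom 3.58.1, no robust estimation, the P tag as a term, a replicate block, and fits without 1 library. Summing counts with copies, and family totals under other settings, were added after the data were seen. The analysis was tested on simulated data.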

Additional observations from a re-analysis of the deposited data

How the results depend on the processing

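Over 17 alternatives, 19 of the 23 called members kept their direction and their side of the threshold; the exceptions (Ldha, Tigar, Egln3 and Bnip3) have their values in the report. With library size alone, 10 members were lower instead of 6, and 2536 genes of all tested were higher instead of 3860. Some members passed only under another setting. These were Hk1 (RLE, adjusted p = 0.046; DESeq2, 0.0242), Bnip3l (5 settings, lowest 0.0046 with the P tag as a term), Pfkfb3 (0.0183 with the P tag as a term, 0.0236 with upper-quartile scaling, 0.00617 with library size alone), Ankrd37 (without DTG replicate 1, 0.019), and, with library size alone, Gpi1 (0.0339), Pfkfb2 (0.0233) and Ddit4 (0.016). Leaving out 1 library at a time gave 15 to 18 members higher and 5 to 7 lower. Signs turned for Egln1 (log2 -0.086 with upper-quartile scaling, -0.163 with library size alone, and -0.035 to 0.068 with 1 library left out, lowest without DMSO replicate 1), for the ratio of Pfkfb2 to Pfkfb3 (-0.004 to 0.174 with 1 library left out, lowest without DMSO replicate 1) and for the phosphofructokinase total (-2.341 CPM per kb with library size alone), none of which had passed a test. Aldoc, Ldhb, Pdk4 and Car9 had at most 27 counts over a group, too few for the main test.

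With the replicate number as a block, 16 members were higher and 6 lower, and over all genes 3543 and 3728; of the called members only Tigar lost its call (adjusted p = 0.0593). Deviations of same-numbered libraries from their group means correlated at -0.282, 0.009 and -0.052 across genes. The 4 pairs of a DTG and a DMSO library with the same P tag correlated at 0.105 to 0.196, and the remaining pairs at -0.156 and -0.161. With the P tag as a term, 18 members were higher and 7 lower. The replicate numbers are those of the sample titles; inside the library names stands another number (2, 2 and 3 for DTG, 1, 1 and 3 for DMSO), whose meaning is not given, so the block may not follow the libraries' own numbering.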
